A study of Mus musculus with 14 samples.

Results

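PRDM16 binding in the left ventricle (LV) was compared with that in the right ventricle (RV) over 17390 regions of the mouse genome. They are the regions of the authors' deposited LV against RV table, 17587 in all and each a PRDM16 peak of wild-type whole hearts, less 197 that overlap a PRDM16 peak of the conditional knockout (Prdm16cKO) by at least 1 bp. The measurement was ChIP-seq, in which DNA held by a protein is pulled down with an antibody and sequenced, so that reads pile up where the protein sat. Of the 14 samples of the series, 4 give the comparison: 2 LV and 2 RV libraries made with a PRDM16 antibody, from wild-type (WT) C57BL/6 embryos at E13.5. The labels give "Mock" as their genetic manipulation. Each sample combined 10 to 12 ventricles of 1 side, fixed with EGS and formaldehyde, and nothing in the labels says whether the pools of the same side came from separate litters. The p-values below therefore measure the spread between these pools. The knockout sample, a pool of 3 whole hearts without atria on the same strain, served only to remove regions here, and the labels name no Cre driver for its deletion. The tissue is bulk, so that a lower value from fewer cells that carry PRDM16 at a site and one from less PRDM16 per cell cannot be told apart.

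PRDM16 is a zinc-finger protein of the PRDM family that brings chromatin regulators to DNA. It is best known for the choice between brown fat and muscle, and in the developing heart it is found in the compact layer, the dense outer wall of the ventricle, beside the sponge-like trabeculae within. The ventricles have different origins: LV muscle comes mainly from the first heart field, marked by the transcription factors Tbx5 and Hand1, and RV muscle comes mainly from the second heart field, marked by factors such as Isl1 and Hand2.

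The promoters below, from RefSeq (GRCm38.p6), are shown because a PRDM16 region lies over each and because their values run from higher in LV to higher in RV. They were chosen after these values were seen. Each runs 5′ to 3′ along the gene, from 250 bases before the start site to 50 from it on. Capitals mark matches on either strand to the T-box core AGGTGT, the GATA motif AGATAA or the TEAD motif GGAATG, which do not overlap one another here. Nkx2-5 and Meis1 hold none of the 3 in this window.
Nkx2-5: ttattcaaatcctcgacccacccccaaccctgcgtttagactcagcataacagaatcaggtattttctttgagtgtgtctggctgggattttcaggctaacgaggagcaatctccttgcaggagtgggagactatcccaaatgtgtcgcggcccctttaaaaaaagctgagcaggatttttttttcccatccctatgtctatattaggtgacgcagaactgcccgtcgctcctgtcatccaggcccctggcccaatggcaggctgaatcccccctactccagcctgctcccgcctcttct
Nppa: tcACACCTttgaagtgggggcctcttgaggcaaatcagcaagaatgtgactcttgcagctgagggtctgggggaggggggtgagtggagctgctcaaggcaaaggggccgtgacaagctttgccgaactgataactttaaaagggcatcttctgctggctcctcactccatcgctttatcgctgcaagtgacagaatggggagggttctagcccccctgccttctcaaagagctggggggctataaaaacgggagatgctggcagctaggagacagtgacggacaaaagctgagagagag
Ankrd1: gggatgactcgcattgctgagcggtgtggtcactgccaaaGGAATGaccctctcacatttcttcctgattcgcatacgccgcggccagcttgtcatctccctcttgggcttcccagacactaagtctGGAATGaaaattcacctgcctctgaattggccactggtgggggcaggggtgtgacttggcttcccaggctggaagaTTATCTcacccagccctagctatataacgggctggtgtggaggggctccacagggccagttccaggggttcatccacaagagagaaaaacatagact
Meis1: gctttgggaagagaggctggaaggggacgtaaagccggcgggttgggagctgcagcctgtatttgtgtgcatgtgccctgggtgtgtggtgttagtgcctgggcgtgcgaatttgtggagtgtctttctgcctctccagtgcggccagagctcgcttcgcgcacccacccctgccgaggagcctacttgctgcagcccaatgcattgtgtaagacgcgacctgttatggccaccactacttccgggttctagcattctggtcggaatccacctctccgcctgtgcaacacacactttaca

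The Nkx2-5 promoter, chr17:26841516-26841815 on the minus strand, belongs to a homeobox gene of early heart muscle. Its region, chr17:26841431-26841798, held 35 and 16 reads in the LV libraries (A, then B) and 13 and 12 in the RV libraries, an order kept throughout. The authors' columns, which hold 0.5 plus the mean of the scaled libraries, gave 25.2 in LV and 11.9 in RV, a log2 of RV over LV of -1.08. The LV and RV libraries did not overlap, and limma did not call the difference (adjusted p = 0.610). The Nppa promoter, chr4:148000472-148000771 on the plus strand, drives the natriuretic peptide of trabecular and atrial muscle and had 55.6 in LV and 41.5 in RV (log2 -0.42). Ankrd1, a stretch-responsive protein of the sarcomere, has its promoter at chr19:36119795-36120094 on the minus strand. There PRDM16 stood at 103 in LV and 156 in RV (log2 0.60, limma adjusted p = 0.807). Meis1 encodes a homeobox cofactor, and its promoter, chr11:19018920-19019219 on the minus strand, had 10.1 in LV and 21.7 in RV (log2 1.11, limma adjusted p = 0.644). The T-box match of Nppa lies 248 to 243 bases before its start site, and the TEAD matches of Ankrd1 lie 210 to 205 and 123 to 118 bases before it, with a GATA match at 47 to 42. The T-box core occurs in 13.7%, the GATA motif in 11.2% and the TEAD motif in 14.7% of all 32851 RefSeq promoters of this length. Over the 1780 pairs of a promoter and a PRDM16 region on it, the median log2 of RV over LV was -0.01 where the promoter held the T-box core (166 pairs) and 0.02 where it did not. For the GATA motif it was 0.08 (124 pairs) and 0.01, and for the TEAD motif 0.03 (273 pairs) and 0.02. A match describes letters in the window and shows no binding of a factor there.

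The LV libraries are called A and B, and the RV libraries A and B, because the columns do not say which labelled replicate each one is. They held 267552, 127945, 225419 and 198017 reads in the 17390 regions, with medians of 10, 5, 9 and 8 reads per region. LV library B stood apart: it was the shallowest, 364 of the regions had no read in it against 105 to 124 in the other libraries, and 30.6% of all its reads in peaks lay in the 197 regions that overlap a knockout peak. That share ran from 19.0% in LV library A to 26.1% in RV library B among the others. The regions left out had a median log2 of -0.14, and 173 of the 197 were higher in LV. Next to the threshold, the region kept closest to a knockout peak lay 81 bp from it, inside Tmem267, and had 89.6 in LV and 79.3 in RV. The region left out with the smallest overlap, 72 bp near Galnt18, had 36.6 and 34.1.

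Across the genome the differences between the ventricles, after each library had been scaled, were centred near 0 and spread evenly to both sides. Scaling can remove a difference shared by most regions, so that this centre does not show equal PRDM16 binding over the genome. The median log2 of RV over LV was 0.0031 (SD 0.628 over 17390 regions, quartiles -0.37 and 0.38). LV had the higher value at 8656 regions (49.8%) and RV at 8733, with 1 tie. A log2 within 0.5 of 0 was seen at 10823 regions (62.2%). A difference of at least 2-fold was seen at 918 regions on the LV side (5.28%) and 947 on the RV side (5.45%), and one of at least 4-fold at 60 and 47. Both LV libraries lay above both RV libraries at 3139 regions (18.1%), and the reverse held at 3086 (17.7%).

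Libraries of different ventricles differed about as much as pools of the same ventricle. Over all regions the SD of the log2 difference, with a pseudocount of 1, was 0.848 between the LV libraries and 0.751 between the RV libraries. Between an LV and an RV library it ran from 0.740 (LV A with RV A) to 0.887 (LV B with RV B). An exact permutation test of 2 against 2 samples cannot go below a two-sided p of 0.33, so that single regions were tested with limma, which shares its estimate of the spread over all regions. In that fit the median half-width of the 95% interval was 1.05 on the log2 scale, and the whole interval lay within a 2-fold difference at 2595 regions (14.9%). At all the others the interval reached past 2-fold on at least 1 side, so that a 2-fold difference was not excluded there. For most of these others the interval also held 0, so that these depths do not show whether binding differed.

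**Figure D1:**
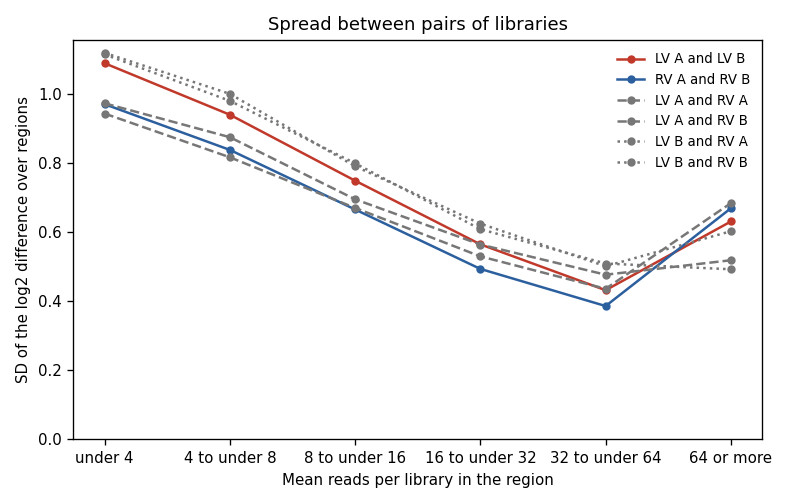
SD over regions of the log2 difference in normalized reads plus 1 between each pair of libraries (y), by the mean reads per library of the region (x, 6 classes). Red is the pair of LV libraries, blue the pair of RV libraries and grey the pairs across ventricles; all 6 lines fall together with depth up to 64 reads, from 0.944 to 1.12 under 4 reads to 0.387 to 0.510 at 32 to under 64.

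The size of the differences followed the depth of the region. At the 2075 regions with a mean under 4 reads, 21.8% differed by at least 2-fold, and at the 718 regions of 32 to under 64 reads 1.81% did (7 higher in LV and 6 in RV). Among the 159 regions of 64 or more reads, 3 were at least 2-fold higher in LV and 0 in RV, and the 95% interval lay within 2-fold at 113. Of the 100 regions with the most reads, 90 had a log2 within 0.5 of 0, 2 differed by at least 2-fold, and 70 had the whole interval within 2-fold. Among the top 500 these counts were 420, 9 and 341. The class of 64 or more reads had a wider spread between the RV libraries (SD 0.670) than the class below it (0.387), and it holds the 3 regions at Hey2 and Mycn described further on.

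In limma, 5 of the 17390 regions passed an adjusted p of 0.05, a share of 0.0288%, and all 5 were higher in LV. They lie at Ptprn2, Cxcl12, Hand1, St18 and Tbx5. The share called on the RV side was 0%, with 560 regions (3.22%) at an unadjusted p under 0.05 against 551 (3.17%) on the LV side. In the table deposited by the authors, no region (0) had an adjusted p under 0.05, with a smallest value of 0.444, and 60 (0.345%) on the LV side and 25 (0.144%) on the RV side had an unadjusted p under 0.05. With 1 library left out, limma takes the spread within a ventricle from the pair of the other ventricle alone. Counts of calls in those fits therefore do not show which library the calls rest on. Over all 11 other settings, the fits without 1 library among them, the log2 of the called regions stayed below 0. It ran from -2.59 to -2.02 at Ptprn2, -6.02 to -2.24 at Cxcl12 and -2.38 to -1.68 at Hand1. At St18 it ran from -2.15 to -1.62 and at Tbx5 from -2.56 to -1.71.

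**Figure D2:**
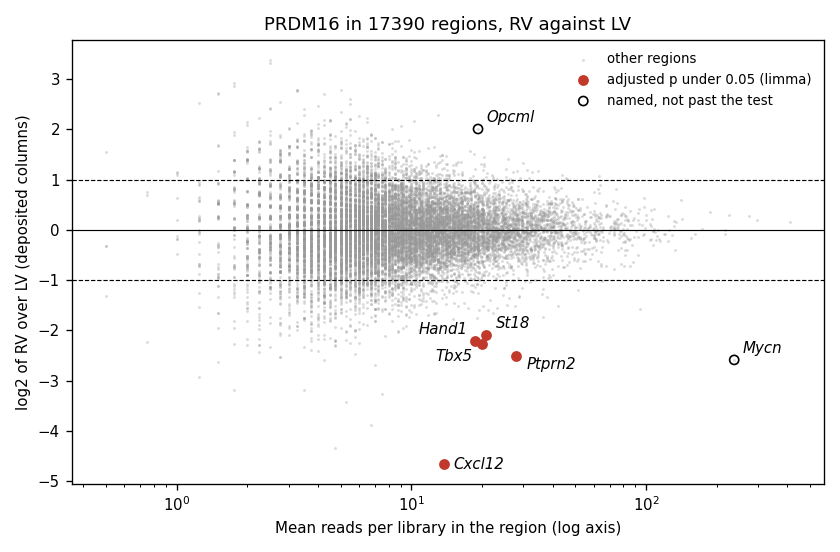
log2 of RV over LV from the deposited columns (y) against the mean reads per library (x, log axis) for 17390 regions. The 5 regions past the limma threshold (red) all lie below a log2 of -2, and the cloud narrows around 0 as reads increase; Opcml and Mycn (open circles) did not pass, and dashed lines mark a 2-fold difference.

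Tbx5, a T-box factor of LV and atrial muscle, had the called region within 1000 bp of an end of the gene, at chr5:119796420-119796866. It held 50 and 17 reads in LV and 5 and 8 in RV. Both LV values lie above both RV values. Its other 8 regions had log2 values from -0.86 to 0.30, 5 higher in LV and 3 in RV, and none of them had an unadjusted p under 0.05. The 3 of them within 50000 bp of the called one were all higher in LV (-0.79 to -0.27). Summed over its 9 regions, Tbx5 had 99.7 and 107 normalized reads in LV and 60.6 and 83.0 in RV, which limma did not call (log2 -0.54, SE 0.206, adjusted p = 0.528). The call at Tbx5 was thus of 1 region among 9. Both LV sums lay above both RV sums, but they hold the called region, which was picked by its small p. That region alone gave 37.2 and 24.9 normalized reads in LV and 4.33 and 7.72 in RV. The sums therefore cannot show whether the rest of the locus differed. With the called region in it, the interval of the summed log2, not adjusted over genes, ran from -0.95 to -0.12, all on the LV side.

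Hand1, a basic helix-loop-helix factor of the left ventricle, has a single region, 15574 bp from the gene at chr11:57847449-57848017. Its reads were 36 and 25 in LV and 6 and 8 in RV, and limma put the log2 at -2.14 (SE 0.388, adjusted p = 0.0186). Ptprn2, a receptor-like phosphatase protein of secretory granules, had 63 and 32 reads in LV and 8 and 9 in RV at chr12:116776410-116776947, inside the gene (log2 -2.45, SE 0.350, limma adjusted p = 0.0013). After scaling, its LV libraries stood at 46.9 normalized reads each. The other 4 regions of Ptprn2 had log2 values from -0.62 to 0.52, 2 on each side. St18, a zinc-finger factor, had 45 and 22 reads in LV and 8 and 8 in RV at chr1:6805028-6805653, and its other region had a log2 of 0.40.

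Cxcl12 is the chemokine that guides cells carrying its receptor Cxcr4. Its called region, chr6:117275855-117276168, lies 94572 bp from the gene and had 46 and 8 reads in LV and 1 and 0 in RV. From these reads LV was 58.4 times RV after scaling, with an exact 95% interval from 10.0 to 2349 that covers counting error only. Of the other 11 regions of Cxcl12, 8 were higher in RV and 3 in LV (-0.99 to 1.24). The 12 together gave 253 and 202 normalized reads in LV and 210 and 193 in RV, so that the LV and RV libraries overlapped (log2 -0.17, limma adjusted p = 0.903). At all 4 called genes with more than 1 region, some other region of the same gene was thus higher in RV.

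The next 3 regions by p on the LV side lie at Glis3, Tenm4 and LOC108167340. Glis3, a Krüppel-like zinc-finger factor, had 16 and 10 reads in LV and 1 and 0 in RV, a ratio of 28.1 (exact 95% interval 4.62 to 1153, counting error only; limma adjusted p = 0.0654). Tenm4, a teneurin of the cell surface, was the deepest, with 190 and 89 reads in LV and 53 and 46 in RV at chr7:96660750-96662218, inside the gene (log2 -1.57, SE 0.321, limma adjusted p = 0.0654). Its normalized values were 141 and 130 in LV against 45.9 and 44.4 in RV.

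On the RV side no region passed, and the smallest adjusted p in limma was 0.0654, at Opcml, a cell adhesion molecule of neurons. This region passed in 5 of 11 other settings, among them without LV library A (adjusted p = 0.0496) and without LV library B (5.6e-06). The called region at Cxcl12 passed in 4 of the 11. Rchy1, a ubiquitin ligase, is the nearest gene of a region 141478 bp away at chr5:91807101 with 6 and 2 reads in LV and 25 and 19 in RV. The remaining 6 had Slitrk5, Rps6kc1, Tbx19, BC052040, Klf7 and Rybp as their nearest genes. Those of Rps6kc1 and BC052040 lie inside the gene, and the others lie 71002 bp (Rybp) to 204791 bp (Slitrk5) away. Their limma log2 values ran from 1.34 at Tbx19 to 2.61 at Rps6kc1, with adjusted p from 0.274 to 0.393. Both RV libraries lay above both LV libraries at all 8, which the choice by smallest p favours. At Rps6kc1, 1 LV library had 0 reads (8 and 0 against 16 and 17). Klf7, a Krüppel-like factor, had 20 reads in LV library A and 1 in LV library B, against 25 and 28 in RV.

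**Figure D3:**
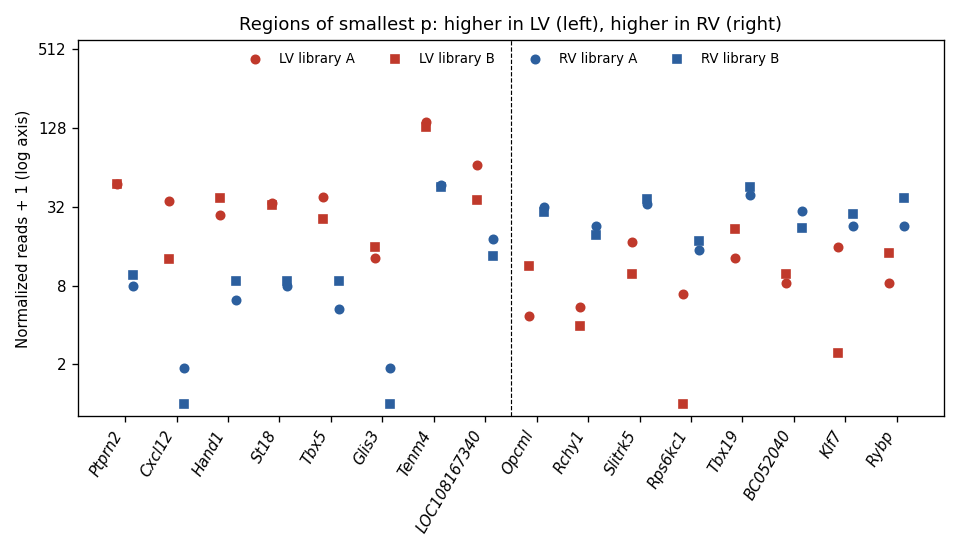
Normalized reads plus 1 (y, log axis) in each of the 4 libraries (red LV, blue RV; circles A, squares B) at 8 regions per side, those of smallest p (x, nearest gene). In all 16 the LV and RV points do not overlap, which the choice by smallest p favours, and the 5 leftmost passed limma. Of all regions, 18.1% do not overlap on the LV side and 17.7% on the RV side.

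Regions were next added up over the nearest protein-coding gene, which gave 7069 genes with a median of 1 region and a maximum of 30. Of these, 5 passed limma (0.0707%), all higher in LV, and 0% passed on the RV side. They are Itm2c, Hand1, LOC108167340, Mcph1 and Gm6713. At an unadjusted p under 0.05 there were 255 on the LV side (3.61%) and 256 on the RV side (3.62%). The 95% interval lay within a 2-fold difference at 2876 genes (40.7%), and the median log2 was 0.0044 (SD 0.498). Of the genes with called regions, Hand1 alone was also called as a gene, on the same reads, as it has a single region. Of these 5 genes, 2 were still called without LV library A, 3 without LV library B, 4 without RV library A and 2 without RV library B. Without LV library A, 27 genes were called on the RV side.

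Itm2c, a BRICHOS-domain membrane protein, gave the smallest p of the 7069 genes although neither of its regions was called by itself. Its summed reads were 108 and 38 in LV and 30 and 20 in RV, or 80.4 and 55.7 against 26.0 and 19.3 after scaling. The estimate was -1.54 (SE 0.271, limma adjusted p = 0.0064). Both regions lie inside the gene, at chr1:85901931-85902475 (48, 16, 14 and 7 reads) and chr1:85906832-85907261 (60, 22, 16 and 13 reads). Their log2 values were -1.60 and -1.51, close to each other.

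Mcph1, the microcephalin gene of chromosome condensation and DNA damage, was called on 5 regions with 121 and 50 reads in LV and 43 and 35 in RV (log2 -1.17, SE 0.235, limma adjusted p = 0.0168). Of these reads, 90 and 34 in LV and 22 and 22 in RV came from 1 region, chr8:18115087-18115962, which lies 479647 bp from the gene, so that its tie to Mcph1 is by distance alone. With only regions within 50000 bp of a gene, 3 genes were called, and the log2 of Mcph1 was -0.20. LOC108167340 had 94 and 28 reads in LV and 22 and 16 in RV over 2 regions outside it (log2 -1.59, SE 0.299, limma adjusted p = 0.0075). Gm6713 had 19 and 9 reads in LV and 0 and 2 in RV at a region inside it, a ratio of 15.1 (exact 95% interval 3.82 to 131, counting error only; limma adjusted p = 0.0467).

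The next genes on the LV side had an adjusted p of 0.0527 each in limma. They are Cul4a, a scaffold of ubiquitin ligases (26 and 22 reads against 8 and 5), Kbtbd8, an adaptor of such ligases (66 and 34 against 21 and 23), and Ipo5, an importin that carries proteins into the nucleus (160 and 84 against 82 and 62). The single region of Kbtbd8 lies 155237 bp from the gene, so that its tie to Kbtbd8 is by distance alone. All 5 regions of Ipo5 were higher in LV, with log2 values from -1.14 to -0.15. On the RV side the smallest p was that of Parp11, an ADP-ribosyltransferase, with 6 of 7 regions higher in RV. It had 96.0 and 111 normalized reads in LV and 163 and 167 in RV (log2 0.67, SE 0.178, limma adjusted p = 0.237). Coro2b, an actin-binding coronin, had 41 and 12 reads in LV and 60 and 48 in RV, with 5 of 5 regions higher in RV (0.52 to 1.77, gene log2 1.05). Nr4a3, an orphan nuclear receptor, had 22 and 5 against 34 and 30 (log2 1.33, limma adjusted p = 0.315), and Afap1l2, an adaptor of Src signalling, had 45 and 21 against 60 and 78 (log2 0.94, 0.244).

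Few genes had all their regions on 1 side. Of the 938 genes with at least 5 regions, 20 (2.13%) had every region higher in LV and 26 (2.77%) had every region higher in RV. They are described because of that pattern, which was not tested. The LV group held Myl2, Gja5 and Mef2c. Myl2, the ventricular myosin regulatory light chain, had 6 of 6 regions on the LV side within a narrow range (-0.34 to -0.12), and 319 and 246 normalized reads in LV against 254 and 219 in RV. Gja5, the connexin of trabeculae and the conduction system, had 6 of 6 (-1.30 to -0.06) and 142 and 144 against 128 and 103. Mef2c, a MADS-box factor needed for the second heart field, had 5 of 5 (-1.34 to -0.16) and 62.5 and 61.5 against 45.9 and 42.4. Both LV libraries lay above both RV libraries at Gja5 and Mef2c, while at Myl2 RV library A exceeded LV library B. Picking genes with all regions on 1 side favours such separation. Over all 7069 genes it was seen at 17.9% on the LV side and 17.6% on the RV side. E2f3, a cell cycle factor, had 6 of 6 regions on the LV side (log2 -0.65), and Itga6, a laminin-binding integrin, 5 of 5 (-0.69).

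The RV group held Mef2d, another MADS-box factor (5 of 5, 0.26 to 0.81), Efnb1, an ephrin ligand (5 of 5, 0.39 to 1.84), and Ror2, a receptor for Wnt ligands (6 of 6, 0.09 to 0.99). The regions of Efnb1 lie 50286 to 142699 bp from the gene. Mef2d had 41.7 and 54.2 normalized reads in LV and 68.4 and 66.6 in RV, so that its regions and those of Mef2c lay on opposite sides. Cdh5, the cadherin of endothelium, had 5 of 5 regions on the RV side with 42.4 and 38.1 in LV and 52.8 and 53.1 in RV (log2 0.39, limma adjusted p = 0.807). None of these genes passed limma, and their smallest adjusted p was that of Ipo5.

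Gene lists of heart biology were then read against the 49.8% of all regions that were higher in LV. The lists had been chosen with earlier results of these data known. Of 23 lists, the left ventricle and trabecular lists had the lowest medians. The left ventricle list has 12 genes, of which 7 had regions: Hand1, Tbx5, Nppa, Irx3, Gja5, Hopx and Lbh. Of their 38 regions, 24 were higher in LV and 14 in RV (median log2 -0.24), and both LV libraries lay above both RV libraries at 12 with the reverse at 2, where 18.1% and 17.7% of all regions did so. By gene, 5 of the 7 were lower in RV. Hopx, a homeodomain-only factor, had 217 and 176 normalized reads in LV and 217 and 206 in RV, and Lbh, a transcription cofactor, had 199 and 149 against 244 and 192. The Nppa region counts here with the promoter printed above. Hand1 was the gene of the list that limma called.

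The trabecular list has 19 genes, 17 of them with 83 regions in all. LV had the higher value at 60 regions and RV at 23 (median log2 -0.24), and 14 of the 17 genes were lower in RV. Both LV libraries lay above both RV libraries at 30 regions (36.1%), with the reverse at 7 (8.43%), where 18.1% and 17.7% of all regions did so. The 83 regions took 0.761% and 0.721% of the reads within the 17390 regions in the LV libraries and 0.633% and 0.618% in the RV libraries, so that these shares did not overlap. The shares of several other lists did not overlap either. No region or gene of the list passed limma (adjusted p of the genes 0.528 at Kcnk3 to 0.995 at Robo1). Irx3, a homeobox gene of trabeculae and conduction tissue, had 159 and 133 normalized reads in LV and 126 and 103 in RV over 9 regions, 7 of them higher in LV. Kcnk3, a potassium channel, had 109 and 98.2 against 74.5 and 67.5 (log2 -0.54, SE 0.201). Nppb, the second natriuretic peptide, had 96.0 and 85.0 against 72.7 and 64.6. Bmp10, a trabecular growth factor, had 76.7 and 67.4 against 57.2 and 64.6, and Erbb4, the neuregulin receptor, 147 and 160 against 139 and 123. Both LV libraries lay above both RV libraries at these 5, which were named with their values known. The libraries overlapped at Irx1, a homeobox gene (124 and 87.9 against 88.3 and 91.6), and at Nppa (70.7 and 39.6 against 33.8 and 48.2). Over the 17 genes, 9 did not overlap on the LV side and 1 on the RV side, where 17.9% and 17.6% of all 7069 genes did so. The members that went the other way were Myl4, the atrial light chain (log2 0.07), and the axon guidance genes Robo1 (0.04) and Slit3 (0.25). The trabecular and left ventricle lists share Gja5, Irx3 and Nppa.

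Both lists kept a median below 0 in all 13 settings tried, from -0.42 to -0.15 for the left ventricle list and from -0.32 to -0.18 for the trabecular list, while that of all 17390 regions stayed between -0.02 and 0.05. The medians of the calcium handling, conduction system and cell cycle lists were also below 0 in every setting tried. Those of the TGF-beta and BMP, Notch, smooth muscle and pericyte, and neuronal lists were above 0 in every setting tried.

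**Figure D4:**
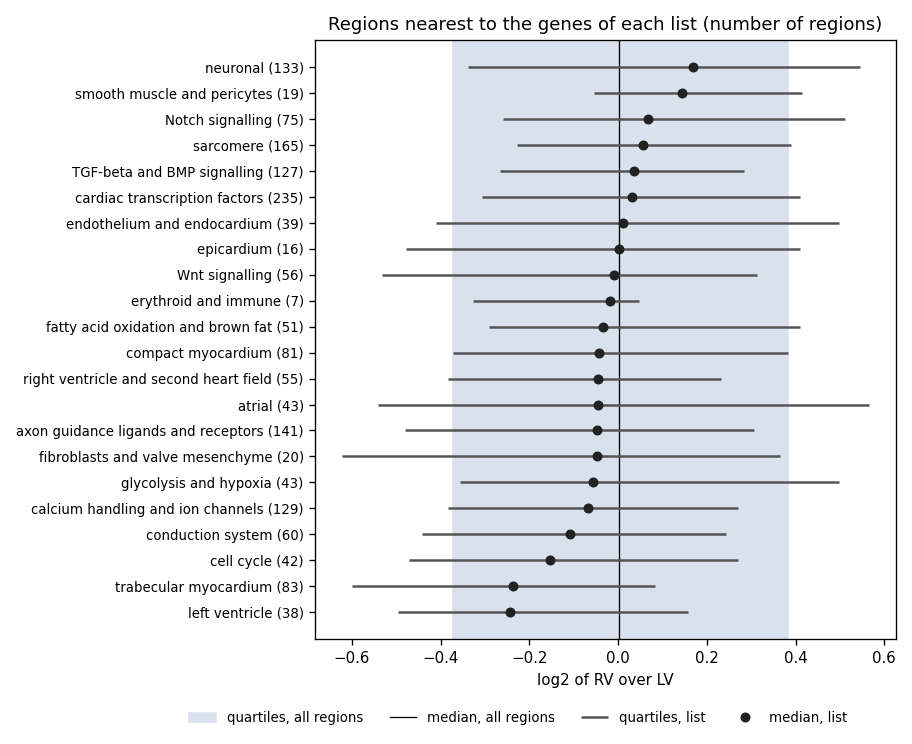
Median (points) and quartiles (bars) of log2 RV over LV for the regions nearest to the genes of each list with at least 5 regions (y, with their number). The shaded band and the line give the quartiles (-0.37 and 0.38) and the median of all 17390 regions; the left ventricle and trabecular lists have the lowest medians, both -0.24, and the neuronal list the highest, 0.17.

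Genes of the right ventricle and second heart field did not lean to RV: of 55 regions at 14 genes, 30 were higher in LV and 25 in RV (median log2 -0.05). This median changed sign with the setting, from -0.13 to 0.07. Hand2, a basic helix-loop-helix factor of the RV, had 104 and 96.7 normalized reads in LV and 123 and 112 in RV, with 8 of 12 regions higher in RV (log2 0.22, SE 0.187, limma adjusted p = 0.886). Irx4, a homeobox factor of both ventricles, had 96.8 and 103 in LV and 101 and 105 in RV. Wnt11, a ligand of non-canonical Wnt signalling, had 92.3 and 87.9 in LV and 84.9 and 68.5 in RV. Isl1, the factor that marks the second heart field, had a single region with 8 and 6 reads in LV and 7 and 6 in RV. Genes of compact myocardium had 43 regions higher in LV and 38 in RV (median -0.04, from -0.12 to 0.12 over the settings). Among them Casz1, a zinc-finger factor, had 150 and 139 normalized reads in LV and 158 and 144 in RV, and Fstl4, a follistatin-like protein, 138 and 149 against 119 and 153. Tbx20, a T-box factor of both ventricles, had 142 and 82.0 against 119 and 126.

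Cardiac transcription factors had regions at all 28 genes of their list, 110 higher in LV and 125 in RV (median 0.03, from -0.08 to 0.12 over the settings). Meis2, a partner of Meis1, had 107 and 129 normalized reads in LV and 184 and 154 in RV (log2 0.52, SE 0.177, limma adjusted p = 0.524), and Srf, the serum response factor, had 24.6 and 23.4 against 39.0 and 38.6 at its single region (0.67, adjusted p = 0.621). Nkx2-5 had 165 and 135 against 120 and 117 over 9 regions. Gata4, a zinc-finger factor of heart muscle, had 109 and 110 in LV and 125 and 108 in RV. Sarcomere genes had 73 regions higher in LV and 92 in RV (median 0.06, from -0.07 to 0.19 over the settings), and 24 of 33 genes were higher in RV. Ankrd1 had 268 and 208 in LV against 333 and 278 in RV over 12 regions (log2 0.36, SE 0.153, limma adjusted p = 0.606), and Csrp3, a LIM protein of the Z-disc, 81.9 and 63.0 against 102 and 93.6. The myosin heavy chain genes had log2 values of PRDM16 signal near 0, at 0.0047 (SE 0.151) for Myh7 and -0.0026 (SE 0.176) for Myh6. Their 95% intervals, -0.30 to 0.31 and -0.36 to 0.35, lie within a 2-fold difference.

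No region or gene of the TGF-beta and BMP, Notch or Wnt lists passed limma. TGF-beta and BMP genes had 58 regions higher in LV and 69 in RV (median 0.04), and 21 of 28 genes were higher in RV, among them Tgfb2, a TGF-beta ligand (185 and 174 normalized reads in LV, 220 and 188 in RV), and Bmp7, a BMP ligand (130 and 114 against 143 and 153). Their shares of the reads within the 17390 regions, 0.731% and 0.709% in LV and 0.775% and 0.757% in RV, did not overlap. Notch genes had 32 and 43 regions (0.07) and Wnt genes 29 and 27 (-0.01). Calcium handling and channel genes had 75 higher in LV and 54 in RV (-0.07), and cell cycle genes 28 and 14 (-0.15). Neuronal genes had 54 and 79 regions (0.17), 1 of them called, at Ptprn2, and axon guidance genes 72 and 69 (-0.05), 1 of them called, at Cxcl12.

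Markers of other cell types that a ventricle holds gave few regions. Endothelium and endocardium had 19 regions higher in LV and 20 in RV at 13 of 20 genes, with 0.156% and 0.182% of the reads within the 17390 regions in LV and 0.171% and 0.167% in RV. Epicardium had 8 and 8 at 7 of 14 genes, fibroblasts and valve mesenchyme 11 and 9 at 11 of 20, and smooth muscle and pericytes 6 and 13 at 8 of 12. The smooth muscle and pericyte regions held 0.107% and 0.119% of these reads in LV and 0.139% and 0.128% in RV, without overlap. Shares without overlap were common among the lists. They were also higher in LV for the left ventricle, calcium handling, conduction system, cell cycle, fibroblast and axon guidance lists, and higher in RV for the fatty acid list. Atrial genes, which also bear on the dissection, had 22 and 21 regions (median -0.05). Blood and immune genes had regions at 2 of 16 genes and liver genes at 1 of 16. PRDM16 binding is no measure of a gene's expression, and the part of cell composition in the LV and RV values was not tested.

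The regions with the most reads showed where the libraries of 1 ventricle differed. Among the 139 regions with at least 100 reads in some library, the highest library was a median of 1.58 times the lowest after scaling, and 3 regions exceeded 5 times. Hey2, a Notch-responsive repressor of compact muscle, has 2 of them. At chr10:31034760-31035467, 192325 bp from the gene, the reads were 840 and 26 in LV and 26 and 744 in RV. At chr10:30841987-30842367, at an end of the gene, they were 533, 22, 24 and 515. In both, LV library A and RV library B were high and the other libraries low, so that the columns hide the difference: log2 values were 0.16 and 0.27. The third region of Hey2, chr10:31052816-31053853, had 108, 27, 44 and 67 reads, with a log2 of -0.22.

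Mycn, a Myc-family factor of the cell cycle and of compact muscle, had a high value at its promoter in a single library. The region chr12:12941612-12942074 held 812 reads in LV library A and 25, 34 and 79 in LV library B, RV library A and RV library B. Scaled, this was 604, 36.6, 29.4 and 76.2. Its log2 of -2.59 is thus the value of 1 library: LV library B lay below RV library B, and limma gave an adjusted p of 0.671. Without the 3 regions at Hey2 and Mycn, the medians of the lists that hold them moved little, to -0.05 for compact myocardium, 0.03 for cardiac transcription factors, 0.07 for Notch and -0.15 for cell cycle genes. Leaving them out was chosen after their values were seen.

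**Figure D5:**
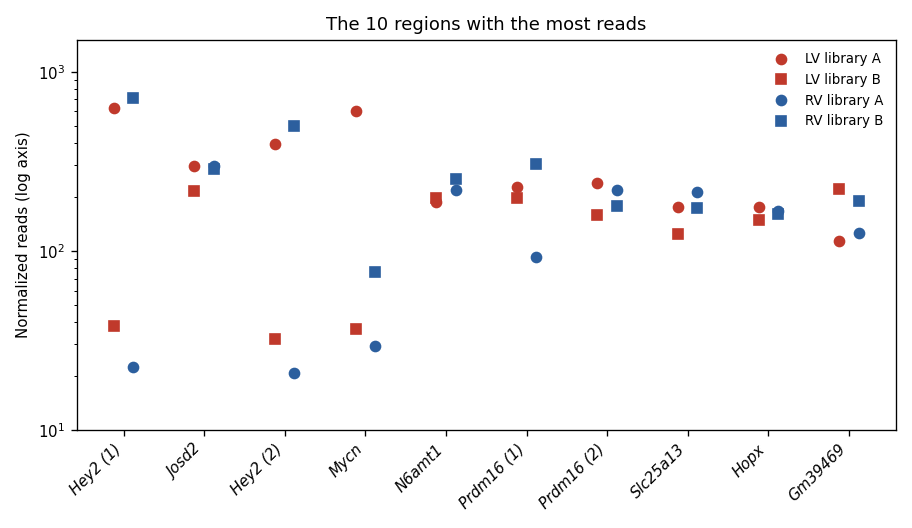
Normalized reads (y, log axis) in each library (red LV, blue RV; circles A, squares B) at the 10 regions with the most reads (x, nearest gene; numbers mark 2 regions of 1 gene). At Hey2 and Mycn the libraries of 1 ventricle lie over 10-fold apart in LV, with LV library A between 397 and 625 and LV library B between 32.2 and 38.1, while at Josd2, Slc25a13 and Hopx all 4 lie close.

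Prdm16 itself carries 18 regions, of which 14 were higher in LV and 4 in RV. Summed, it had 724 and 582 normalized reads in LV and 527 and 730 in RV, so that the ventricles overlapped (log2 -0.06, SE 0.132, limma adjusted p = 0.968). Its 95% interval, -0.33 to 0.20, lies within a 2-fold difference. The deepest of its regions by LV value, chr4:154528336-154528894, had 305, 135, 107 and 318 reads, which is 227 and 198 in LV and 92.7 and 307 in RV after scaling. There the RV libraries differed more than the ventricles did. The region at chr4:154392913-154394483 had 320, 108, 251 and 185.

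Position in the genome made little difference to the balance between ventricles. The 8477 regions inside genes had a median log2 of -0.01, the 2877 within 1000 bp of a gene end -0.0019, the 3395 up to 50000 bp away 0.01 and the 2641 beyond that 0.03. The share that differed by at least 2-fold was 7.26% at gene ends and 14.1% beyond 50000 bp, where the median depth was 9.75 and 7.25 reads. Regions over a promoter window, 1595 in all, had a median of 0.01 and 5.39% at 2-fold or more, against 11.3% of the other regions. None of the 1595 passed limma. Chromosome medians ran from -0.03 on chromosome 18 to 0.05 on chromosome 3, and the X chromosome, with 232 regions, had -0.01. On it 13 regions were at least 2-fold higher in LV and 25 in RV, at a median of 6.5 reads. By the authors' fold enrichment of the peak over background, 12.2% of 1821 regions under 3-fold differed by at least 2-fold, and 3.19% of 501 regions of 10-fold or more did.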

How the data were processed

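Of the series, the deposited table of LV against RV PRDM16 signal and the deposited peak lists of wild-type and knockout whole hearts were used. Per the file headers, the authors' table gives a signal for each ventricle, a log2 mean and log2 fold change, and a p-value with its q-value. The deposited peak lists give a score, a ratio over background, -log10 q and a summit. Per the submitters' processing notes, the tools were HOMER, DESeq2, MACS2 2.1.1.20160309 and BWA 0.7.12-r1039, with GRCm38 and mm10 as builds and no roles stated. No source names the test behind the deposited p-values. The LV and RV signal equals 0.5 plus the mean of 2 scaled libraries, which gave exactly 1 solution in whole reads per library at 100% of regions (tolerance 1e-07). Normalized reads are these reads times 0.744, 1.47, 0.866 and 0.965 in LV A, LV B, RV A and RV B.

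limma 3.58.1 (R 4.3.3, mean-variance trend) was fitted to log2 of normalized reads plus 1 over all 17587 regions or all 7069 genes, with Benjamini-Hochberg adjustment over all of them, and tested on simulated data. Fold changes on this scale understate those of low regions. Each region took its closest protein-coding gene from RefSeq (GRCm38.p6), in which all 447 genes of the 23 lists were found by symbol. Members and lists were chosen with earlier results of these data known. Named are all regions and genes past limma, the 8 of smallest p on each side, the 10 deepest regions, up to 4 genes of most reads per list, every gene of the left and right ventricle lists, genes of at least 5 regions on 1 side, Prdm16, and the regions next to the overlap threshold. Other list genes and promoters were chosen after their values were seen. The inputs were not used here. Other steps ran in Python 3.11.15 with scipy 1.17.1, pandas 2.3.3, matplotlib 3.10.9 and numpy 2.4.6.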

Additional observations from a re-analysis of the deposited data

How the results depend on the processing

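No region or gene past limma changed direction, while the medians of all regions and of the right ventricle list, both near 0, changed sign with the setting. Without 1 library each in turn, the regions called by limma numbered 0 to 17 on the LV side and 0 to 73 on the RV side, and the called genes 0 to 27 on the RV side. Regions at least 2-fold higher numbered 957 to 1724 in LV and 1094 to 2156 in RV. The medians ran from -0.0154 to 0.0366 over all regions, -0.40 to -0.15 in the left ventricle list, -0.13 to 0.0291 in the right ventricle list and -0.32 to -0.26 in the trabecular list. Where 1 library was left in a ventricle, it was assumed to vary like the others.

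LV regions called numbered 1 with a pseudocount of 0.1, 12 with one of 5, 1 after median centring and 13 with voom. RV regions called numbered 4 with voom, 1 among regions averaging 8 reads or more and 2 with a pseudocount of 5. LV genes called numbered 10 with a pseudocount of 5, 11 each with equal totals, median centring and voom, 3 within 50000 bp and 2 within 10000 bp. RV genes called numbered 1 each with centring and voom. Regions at least 2-fold higher in LV and RV numbered 98 and 52 with a pseudocount of 5, 261 and 220 among regions averaging 8 reads or more, and 530 and 528 at a -log10 q of at least 5. The median of all regions was 0.0367 with equal totals and 0.0547 with centring, that of the left ventricle list -0.42 within 10000 bp, and that of the right ventricle list 0.0665 at a mean of at least 8 reads. The cause was not tested.

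Shared calls: of the 5 regions, 1 was called with a pseudocount of 0.1 and after centring, 4 with voom, 3 without LV library A and 4 without LV library B. No paired analysis was possible because the columns carry no replicate numbers, so the fit had no replicate block. Depth limits single regions: below a mean of 8 reads, no 95% interval lay within a 2-fold difference.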
